A study of Homo sapiens with 14 samples.

Results

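The 43 genes described here encode the glucose transporters, the enzymes of glycolysis, the proteins that handle pyruvate and lactate, and the enzymes of the pentose phosphate pathway. They were taken as a list of gene symbols, and every probe whose platform annotation gives 1 of these symbols was collected without use of any measured value. The list itself was chosen with earlier results of these data known, so its shares of called genes only describe it and test nothing. Of the 43 genes, 41 had a named probe and 40 could be tested, out of 12743 genes tested in all. SLC16A1 and SLC16A3 had no named probe and are not analysed here, and PDK4 was tested nowhere because its probe exceeded background on none of the arrays. The members had 68 probes, of which 57 were above background on at least 2 arrays.

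The cells were WM9, a line established from a human melanoma, and their RNA was hybridised to 14 one-colour arrays. They were kept in 10 µM PLX4720, which inhibits the kinase BRAF, for 12, 24, 48, 60, 72 or 96 h, and the control cells were kept in DMSO for 96 h. Each of the 7 groups held 2 arrays, which the series' design text calls biological replicates. All values come from 1 cell line and 1 dose, and since DMSO cells were taken at 96 h alone, hours in culture and drug cannot be told apart at 12 to 72 h. All comparisons with DMSO also share the same 2 control arrays.

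Glycolysis splits glucose into pyruvate and yields ATP and NADH without oxygen. Pyruvate is then either reduced to lactate by lactate dehydrogenase or carried into the mitochondrion and oxidised by the pyruvate dehydrogenase complex, which kinases switch off and phosphatases switch on. The pentose phosphate pathway branches off early and supplies NADPH and ribose. Melanoma cells with an active BRAF pathway are known for high glucose uptake and lactate output, and the hexokinase HK2 and the transporters SLC2A1 and SLC2A3 are often followed in studies of BRAF inhibitors.

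The DMSO arrays had median raw signals of 366 and 370 and the PLX4720 arrays had 232 to 316, so background level and treatment cannot be told apart where PLX4720 is set against DMSO. Between 37.5% and 41% of probes per array were above background. Replicates lay farther apart in DMSO than in PLX4720: the SD over genes of the log2 difference between replicates was 0.56 for DMSO and 0.30 to 0.35 for the PLX4720 groups. Among the members, 2 (PDK3 and RPE) lay over 2-fold apart between the DMSO arrays, and 0 did so in any PLX4720 group. Of the melanocyte lineage markers, SOX10, MITF, TYRP1, S100A1 and MIA were above background on all 14 arrays and PMEL on 12, while S100B was above it on 9, MLANA on 7 and TYR on 6. Of 6 fibroblast markers, COL1A1, COL3A1 and PDGFRA were above background on 0 arrays, PDGFRB on 6, and LUM and DCN on all 14. Of 5 leukocyte markers, PTPRC and CD3E were above it on 0 arrays, LYZ on 5, CD14 on 9 and CD2 on all 14. The keratinocyte markers KRT5 and KRT1 and the endothelial markers VWF and CDH5 were above it on 0 arrays, KRT14 on 2 and PECAM1 on 1. In such bulk RNA, fewer cells of one state and less RNA per cell cannot be told apart.

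Levels are log2 signals after background correction and quantile normalization, which gives every array the same distribution of signals. A gene is called higher or lower where its adjusted p from limma, over all 12743 genes, was below 0.05. SE is the standard error of a log2 fold change in that fit, and n is 2 arrays in every group.

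The list did not move as 1 block. At 96 h, 11 of the 40 members were higher than in DMSO and 8 were lower, which is 27.5% and 20% of the members against 16.4% and 13.5% of all genes tested. The hexokinase gene HK2 was 3.49-fold higher, whereas the hexokinase-like gene HKDC1 was 8.77-fold lower and PDP1, the phosphatase that activates pyruvate dehydrogenase, was 5.6-fold lower. At 12 h the transporter gene SLC2A1 was 2.65-fold higher, while SLC2A3, HK1 and ALDOC were 2.11- to 3.53-fold lower. GAPDH, LDHA and PGD passed the test at neither 12 nor 24 h and were lower at each time from 48 h on. Another 13 members passed no test on the probe that stands for the gene, among them PGK1, ENO1, TPI1, ALDOA and PKM of the trunk of glycolysis. The share of all genes that passed none is not given, so this count is not read as a result about the members.

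The counts by time ran as follows. At 12 h, 4 members were higher and 9 were lower (10% and 22.5%), against 8.99% and 8.26% of all genes. The 24 h arrays gave 6 higher and 5 lower members, against 11.5% and 9.31% of all genes, and the 48 h arrays 5 and 8, against 13.9% and 11.2%. The lower members outnumbered the higher ones at 60 h, with 4 and 10 against 14.1% and 11.1% of all genes, and at 72 h, with 6 and 10 against 15.1% and 12.7%. The median log2 fold change of the members was 0.17 at 12 h and 0.20 at 96 h, against 0.06 and 0.07 over all genes.

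The split between higher and lower members against DMSO depended on how the arrays were scaled. Scaling each array to its median, in place of quantile normalization, moved the median over all genes to -0.14 at 12 h and to -0.26 at 96 h. The members then split into 1 higher and 8 lower (12 h), 1 and 7 (24 h), 2 and 10 (48 h), 2 and 11 (60 h), 2 and 13 (72 h), and 1 and 16 (96 h). The shares of all genes called higher under this scaling were 3.04% (12 h), 4.32% (24 h), 5.97% (48 h), 5.08% (60 h), 5.99% (72 h) and 5.89% (96 h). The shares called lower were 10.7% (12 h), 12.6% (24 h), 15.4% (48 h), 18.3% (60 h), 18.8% (72 h) and 22.6% (96 h), so lower calls outnumbered higher ones among all genes as well. That scaling sets equal the medians of all 47322 probes, most of which were not above background. The falls named above kept their calls under it in the comparisons of 12 h and 96 h with DMSO, while of the rises of members with values below only those of SLC2A1 at 12 h and HK2 at 96 h did so. Since this scaling moved the median over all genes down, it favoured falls over rises, and a fall that kept its call has no separate support from it. Rises and falls against DMSO are both given below relative to the other genes on the array.

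**Figure D1:**
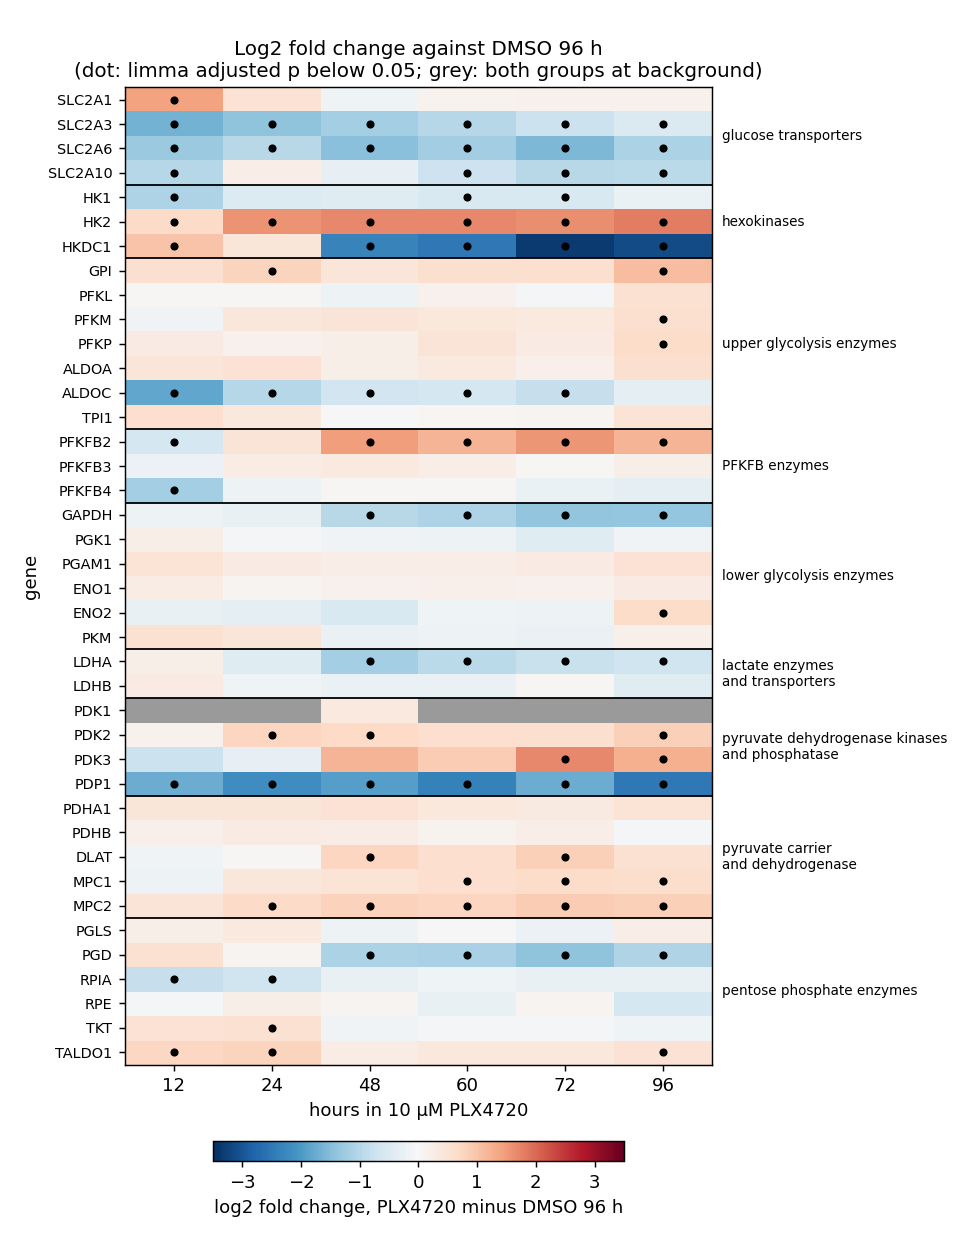
Log2 fold change of the 40 tested members against DMSO at each of the 6 PLX4720 times (columns, hours), grouped by role, with red for higher and blue for lower. A dot marks a limma adjusted p below 0.05. HK2 is red and SLC2A3, SLC2A6 and PDP1 are blue with a dot at all 6 times, and HKDC1, GAPDH, LDHA and PGD turn blue with a dot from 48 h. HKDC1 was not above background on either array at 72 h, and PDK1 was above it at 48 h only, so its other cells are grey.

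The comparison of 96 h with 12 h lies within the PLX4720 arrays, and its fold changes do not use the DMSO arrays. Since no DMSO cells were taken at 12 h, hours in drug and hours in culture cannot be told apart in it. It found 11 members higher and 7 lower at 96 h, which is 27.5% and 17.5% of the members against 15.1% and 14% of all genes. Median scaling gave 9 higher and 7 lower, against 8.8% and 13.6% of all genes. An F test over all 6 PLX4720 times called 17 of the 40 members (42.5%), against 28.1% of all genes. The largest rises from 12 to 96 h were those of PDK3, PFKFB2, ALDOC, SLC2A3 and HK2, and the largest falls those of HKDC1, PGD, SLC2A1 and GAPDH. HK1, PFKFB4 and ALDOC shared 1 order of calls: each was lower than DMSO at 12 h, higher at 96 h than at 12 h, and not called against DMSO at 96 h.

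**Figure D2:**
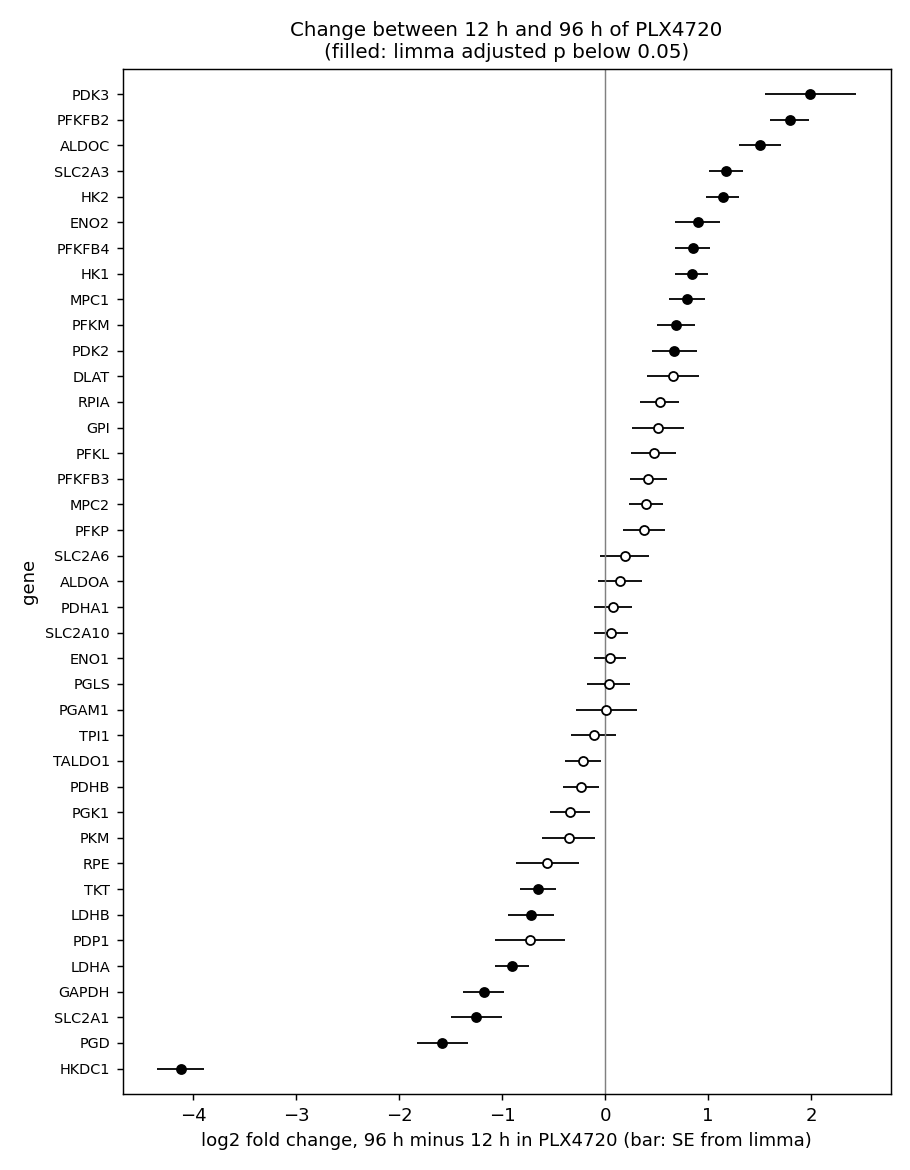
Log2 fold change between 96 h and 12 h of PLX4720 for the tested members other than PDK1, which was at background at both times, sorted by size. Points are limma estimates from 2 arrays a group, bars are 1 SE, and filled points have an adjusted p below 0.05. The 11 filled points on the right run from PDK2 at 0.67 to PDK3 at 1.99, and the 7 on the left from TKT at -0.66 to HKDC1 at -4.12.

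The 4 glucose transporter genes did not share 1 course.

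SLC2A1 encodes GLUT1, the main basal glucose carrier of many cells. Its log2 signal was 11.59 and 12.24 on the DMSO arrays, and in PLX4720 13.20 and 13.44 (12 h), 12.30 and 12.54 (24 h), 11.54 and 11.97 (48 h), 11.78 and 12.32 (60 h), 11.95 and 12.16 (72 h) and 12.11 and 12.02 (96 h). Both 12 h arrays lay above all other 12 arrays, and from 48 h on the PLX4720 and DMSO arrays overlapped. The rise at 12 h was 1.41 on the log2 scale (SE 0.25, limma adjusted p = 0.0019), and by 96 h the gene fell by 1.25 from its 12 h level (SE 0.25, limma adjusted p = 0.00213). Against DMSO at 96 h the change was 0.15 (SE 0.25, limma adjusted p = 0.686), and its sign turned to -0.29 with median scaling.

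SLC2A3 encodes GLUT3, a carrier with high affinity for glucose. Its signal was 13.26 and 13.37 in DMSO, and in PLX4720 11.66 and 11.65 (12 h), 11.96 and 11.87 (24 h), 11.96 and 12.28 (48 h), 12.36 and 12.26 (60 h), 12.51 and 12.64 (72 h) and 12.85 and 12.80 (96 h). No PLX4720 array reached the DMSO arrays, and the means climbed at every step from 12 to 96 h. The gene was 3.16-fold lower than DMSO at 12 h (-1.66 on the log2 scale, SE 0.17, limma adjusted p = 2.29e-05) and 1.41-fold lower at 96 h (-0.49, limma adjusted p = 0.0391). The rise between these times was 2.24-fold (1.17 on the log2 scale, SE 0.17, limma adjusted p = 0.000169). The call at 96 h against DMSO was lost under 14 of 25 alternative settings, with a highest limma adjusted p of 0.282, while the other calls named for SLC2A1 and SLC2A3 held under all 25.

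SLC2A6, a hexose carrier of lysosomes, was lower than DMSO at all 6 times, with log2 fold changes between -1.58 and -0.98. Its DMSO arrays read 11.51 and 12.05, and its 12 PLX4720 arrays lay between 10.04 and 10.81, without overlap. SLC2A10, a facilitative carrier of the same family, was 2.01-fold lower at 12 h (SE 0.17 on the log2 scale, limma adjusted p = 0.00114), was not called at 24 and 48 h (0.24 and -0.29), and was lower again from 60 h, with -0.95 at 96 h (SE 0.17, limma adjusted p = 0.000919). Its 2 arrays at 24 h, 11.88 and 11.78, were the highest of all 14. Both of its probes above background were lower at 12 and at 96 h.

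Hexokinases trap glucose in the cell by phosphorylating it, and the 3 tested genes took 3 different courses.

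HK2, an inducible hexokinase that can bind mitochondria, read 11.69 and 11.73 in DMSO, and in PLX4720 12.48 and 12.27 (12 h), 13.34 and 13.21 (24 h), 13.48 and 13.32 (48 h), 13.32 and 13.43 (60 h), 13.36 and 13.32 (72 h) and 13.56 and 13.46 (96 h). All 12 PLX4720 arrays were above both DMSO arrays, and the values from 24 h on lay within 13.21 to 13.56. The log2 fold change against DMSO was 0.67 at 12 h (SE 0.16, limma adjusted p = 0.0124), 1.57 at 24 h and 1.80 at 96 h (SE 0.16, limma adjusted p = 3.69e-06). From 12 to 96 h the gene rose 2.2-fold (limma adjusted p = 0.000155). The rise at 12 h was lost under 5 alternatives, median scaling among them (0.36), and the second HK2 probe gave -0.20 there, but both probes were higher at 96 h (0.75 and 1.80).

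HK1, the hexokinase of most tissues, read 14.53 and 14.78 in DMSO, and in PLX4720 13.63 and 13.53 (12 h) and 14.40 and 14.44 (96 h), with the 8 arrays in between at 14.09 to 14.30. The 12 h arrays were the lowest of the 14. The gene was 2.11-fold lower than DMSO at 12 h (-1.07 on the log2 scale, SE 0.16, limma adjusted p = 0.000565) and was 1.79-fold higher at 96 h than at 12 h (0.84, limma adjusted p = 0.00161). The gene was also called lower than DMSO at 60 h (-0.52, limma adjusted p = 0.0309) and at 72 h (-0.52, limma adjusted p = 0.028). At 96 h the change against DMSO was -0.24 (SE 0.16, limma adjusted p = 0.298), and median scaling called it lower (-0.77). A second, dim HK1 probe, above background on 4 arrays, gave -0.08 at 12 h.

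HKDC1, a hexokinase domain gene related to HK1, had the largest change of any member. It read 10.38 and 10.73 in DMSO, and in PLX4720 11.70 and 11.38 (12 h), 11.06 and 10.90 (24 h), 8.01 and 8.41 (48 h), 8.24 and 7.85 (60 h), 7.34 and 7.07 (72 h) and 7.59 and 7.25 (96 h). The arrays of 12 and 24 h lay above DMSO and all later arrays lay below it, with no overlap. The gene was 1.98-fold higher than DMSO at 12 h (0.99 on the log2 scale, SE 0.23, limma adjusted p = 0.00912), 5.07-fold lower at 48 h and 8.77-fold lower at 96 h (-3.13, SE 0.23, limma adjusted p = 7.2e-07). It was not above background on either array at 72 h, where it was at least 9-fold lower (limma adjusted p = 4.52e-07), and it was above background on 1 of the 2 arrays at 96 h. Between 12 and 96 h it fell by 4.12 on the log2 scale (SE 0.23, limma adjusted p = 7.95e-08). The rise at 12 h was lost under 4 alternatives, with a highest limma adjusted p of 0.114, and the falls named here at 96 h held under all 25.

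**Figure D3:**
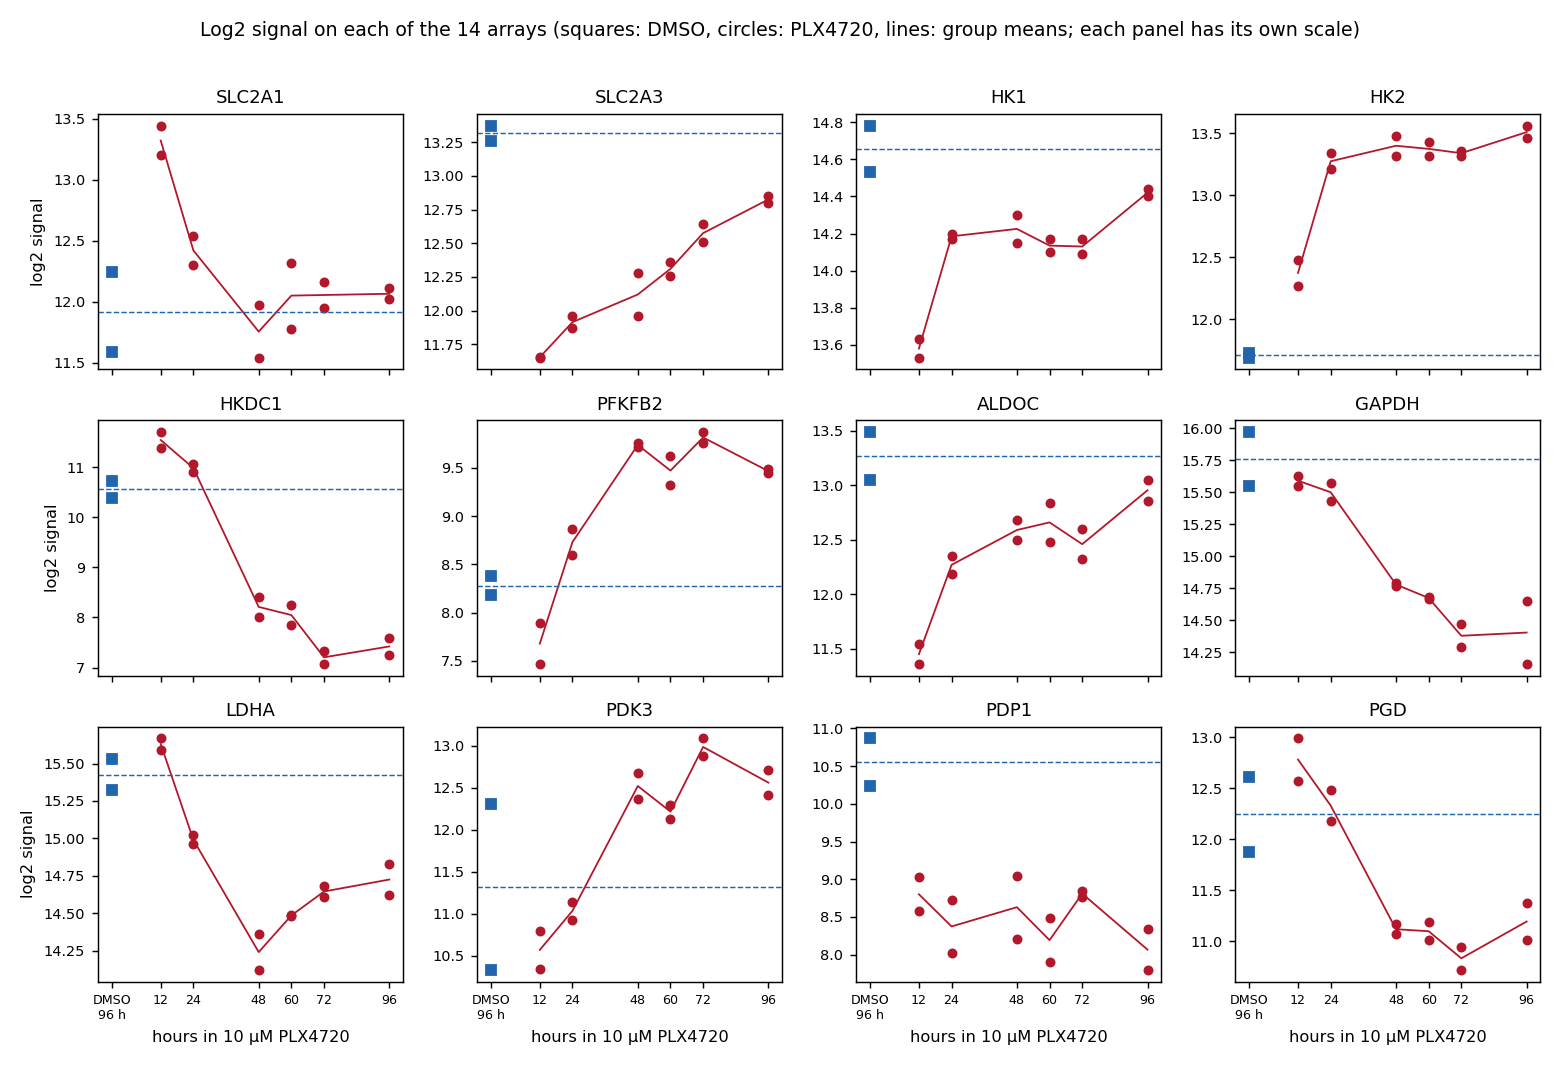
Log2 signal of 12 members on each of the 14 arrays, against hours in PLX4720. Squares at the left are the 2 DMSO arrays and the dashed line is their mean, circles are the PLX4720 arrays and the solid line joins their means, and each panel has its own vertical scale. HK2 lies above and SLC2A3 and PDP1 lie below both DMSO arrays throughout, whereas the 2 DMSO arrays of PDK3 lie 1.98 apart, 1 of them below all 12 PLX4720 arrays and the other below 6.

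The 7 upper glycolysis enzymes carry the hexose on to the split into 3-carbon sugars. At 96 h, 3 of them were higher than DMSO and 0 were lower, and at 12 h 0 were higher and 1 was lower, where 16.4% and 13.5% (96 h) and 8.99% and 8.26% (12 h) of all genes were called. GPI, which turns glucose phosphate into fructose phosphate, read 11.98 and 12.58 in DMSO, and in PLX4720 13.09 and 12.60 (12 h) and 13.58 and 13.13 (96 h). The PLX4720 arrays of both times lay above DMSO, at 12 h by a small margin on replicate 2. GPI was 2.11-fold higher at 96 h (1.08 on the log2 scale, SE 0.25, limma adjusted p = 0.00642) and 1.48-fold at 12 h without passing the test (0.57, limma adjusted p = 0.15). It was also called higher at 24 h (0.79, limma adjusted p = 0.0428).

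The phosphofructokinases catalyse the committed step of glycolysis. PFKP and PFKM, named for platelet and muscle, were higher than DMSO at 96 h by 0.66 (SE 0.20, limma adjusted p = 0.0251) and 0.56 (SE 0.18, limma adjusted p = 0.0364). The liver form PFKL had a change of 0.53 that did not pass (limma adjusted p = 0.0878). At 12 h PFKP stood at 0.28 (limma adjusted p = 0.377). With median scaling the calls of GPI, PFKP and PFKM at 96 h were lost, with changes of 0.63, 0.21 and 0.11, and so were those without DMSO replicate 1. Only PFKM of the 3 also rose from 12 to 96 h (0.69, SE 0.18, limma adjusted p = 0.0131), a call lost without replicate 1 at 12 h or replicate 2 at 96 h.

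ALDOC, an aldolase of brain, was the member of this group called lower at 12 h. It read 13.05 and 13.49 in DMSO, and in PLX4720 11.36 and 11.54 (12 h), 12.19 and 12.35 (24 h), 12.50 and 12.68 (48 h), 12.48 and 12.84 (60 h), 12.32 and 12.60 (72 h) and 12.86 and 13.05 (96 h). The 12 h arrays were the lowest of the 14, and replicate 2 at 96 h alone came up to the lower DMSO array, both at 13.05. The gene was 3.53-fold lower at 12 h (-1.82 on the log2 scale, SE 0.21, limma adjusted p = 6.58e-05) and was called lower up to 72 h. From 12 to 96 h it rose 2.83-fold (SE 0.21 on the log2 scale, limma adjusted p = 0.000124). ALDOA, the aldolase of muscle, and the isomerase TPI1 passed no test on the probe used, although a second, dimmer ALDOA probe, above background on all 14 arrays, was called higher than DMSO at all 6 times when each probe was its own feature. Its log2 fold change was 0.93 at 12 h (limma adjusted p = 0.00651) and 1.46 at 96 h (limma adjusted p = 0.000144), against 0.41 and 0.56 on the probe used.

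The PFKFB enzymes make and break the fructose bisphosphate that activates phosphofructokinase. PFKFB2 read 8.38 and 8.18 in DMSO, and in PLX4720 7.89 and 7.47 (12 h), 8.87 and 8.60 (24 h), 9.71 and 9.76 (48 h), 9.63 and 9.32 (60 h), 9.87 and 9.76 (72 h) and 9.45 and 9.49 (96 h). Its 12 h arrays lay below DMSO and all later ones above it. PFKFB2 was higher than DMSO from 48 h on, by 1.19 at 96 h (SE 0.19, limma adjusted p = 0.000512), and rose 3.46-fold from 12 to 96 h (limma adjusted p = 1.59e-05). Both of its probes gave this rise, 1.63 and 1.79. The lower value at 12 h only just passed (-0.60, limma adjusted p = 0.048) and was lost under 21 of 25 alternatives, with changes from -0.81 to -0.31. PFKFB4 was 2.27-fold lower at 12 h (-1.18, SE 0.17, limma adjusted p = 0.000458), with arrays at 12.61 and 12.56 against 13.65 and 13.88 in DMSO. It was not called against DMSO from 24 h on, and rose by 0.85 from 12 to 96 h (SE 0.17, limma adjusted p = 0.0023). PFKFB3 passed no test.

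The 6 lower glycolysis enzymes turn triose phosphates into pyruvate. None was called at 12 h, GAPDH was lower from 48 h on, ENO2 was higher at 96 h, and the other 4 passed no test.

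GAPDH, the dehydrogenase that yields the NADH of glycolysis and is a common reference gene, read 15.97 and 15.55 in DMSO, and in PLX4720 15.63 and 15.55 (12 h), 15.57 and 15.43 (24 h), 14.77 and 14.79 (48 h), 14.67 and 14.68 (60 h), 14.47 and 14.29 (72 h) and 14.65 and 14.16 (96 h). The 12 h arrays overlapped DMSO, and all 8 arrays from 48 h on lay below the other 6. The change against DMSO was -0.17 at 12 h (SE 0.20, limma adjusted p = 0.619) and -1.35 at 96 h, a 2.55-fold lower level (SE 0.20, limma adjusted p = 0.000262). From 12 to 96 h GAPDH fell by 1.18 (SE 0.20, limma adjusted p = 0.000678). All 3 GAPDH probes above background were lower at 96 h, by log2 fold changes of -1.46 to -0.86.

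Before normalization the same probe read 70535 and 68704 on the DMSO arrays, 97.8% and 95.9% of the highest signal on those arrays, and 24144 and 13986 at 96 h. Signals that near to the top of the scale may be compressed, which was not tested. ENO1, an enolase at 96.4% and 95.7% of the array maximum in DMSO, passed no test, with 0.25 at 12 h (limma adjusted p = 0.29) and 0.30 at 96 h (SE 0.15, limma adjusted p = 0.161).

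PKM, the pyruvate kinase of most cells, was at 0.54 at 12 h (SE 0.26, limma adjusted p = 0.171) and 0.19 at 96 h (SE 0.26, limma adjusted p = 0.617), the latter turning to -0.28 with median scaling. With each probe fitted as its own feature, 2 of its 3 probes were called higher at 12 h, up to 1.24, but the brightest, which stands for the gene, was not. ENO2, the neuronal enolase, rose 1.86-fold from 12 to 96 h (0.90, SE 0.22, limma adjusted p = 0.00713) and was 0.64 higher than DMSO at 96 h (limma adjusted p = 0.0393), a call lost under 15 alternatives. The rise was lost under 3, median scaling and the fits without replicate 2 at 12 h or replicate 1 at 96 h. PGK1 and PGAM1, a kinase that yields ATP and a mutase, passed no test.

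Lactate dehydrogenase exchanges pyruvate and lactate, and LDHA encodes the subunit that favours lactate. LDHA read 15.32 and 15.53 in DMSO, and in PLX4720 15.67 and 15.59 (12 h), 14.96 and 15.02 (24 h), 14.36 and 14.12 (48 h), 14.49 and 14.48 (60 h), 14.61 and 14.68 (72 h) and 14.62 and 14.83 (96 h). The 12 h arrays were the highest of the 14, and every array from 24 h on lay below DMSO, with the lowest pair at 48 h. The log2 fold change against DMSO was 0.21 at 12 h (SE 0.17, limma adjusted p = 0.433), -1.19 at 48 h (SE 0.17, limma adjusted p = 0.000215) and -0.70 at 96 h (SE 0.17, limma adjusted p = 0.00693). From 12 to 96 h LDHA fell by 0.91 (SE 0.17, limma adjusted p = 0.00115).

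All 3 LDHA probes were lower at 96 h, by -0.90 to -0.70. Raw LDHA signals in DMSO, 67791 and 68593, stood at 94% and 95.7% of the array maximum, and those at 12 h were lower, 58751 and 47721. The 12 h arrays were thus the highest only after normalization. Whether the DMSO signals were compressed was not tested. The call at 96 h against DMSO was lost without replicate 1 of the 96 h arrays and under 2 other alternatives, with a highest limma adjusted p of 0.111. LDHB, the subunit that favours pyruvate, was not called against DMSO at any time, with 0.29 at 12 h (limma adjusted p = 0.429) and -0.44 at 96 h (SE 0.22, limma adjusted p = 0.164), though median scaling called it lower at 96 h (-0.92). It fell by 0.72 from 12 to 96 h (SE 0.22, limma adjusted p = 0.0278), a call lost under 4 alternatives, among them those without either 96 h array.

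The promoters of the called members were read for the E-box CACGTG, the palindromic site that MYC and related factors bind, because GAPDH and LDHA fell together and both hold it. Sequences are RefSeq's for GRCh38.p14 and span 250 bases before to 50 after each gene's start, and 37 of the 40 tested members had one. Among the members called between 12 and 96 h, 2 of the 7 that fell and 1 of the 9 that rose with a promoter held an E-box, as did 1 of the 21 that were not called, against 7.43% of 27305 promoters of that length. The 2 that fell are GAPDH and LDHA, which led to the choice of this motif, so their count was fixed beforehand. It is therefore no test of the E-box or of MYC, and binding was not tested. The letters were searched on both strands, and a match describes only the sequence. The 3 promoters below are shown with the E-box in capitals, 5′ to 3′ on the gene's strand: ALDOC at chr17:28576846-28577145 (minus strand), GAPDH at chr12:6535014-6535313 (plus strand) and LDHA at chr11:18394313-18394612 (plus strand).
ALDOC: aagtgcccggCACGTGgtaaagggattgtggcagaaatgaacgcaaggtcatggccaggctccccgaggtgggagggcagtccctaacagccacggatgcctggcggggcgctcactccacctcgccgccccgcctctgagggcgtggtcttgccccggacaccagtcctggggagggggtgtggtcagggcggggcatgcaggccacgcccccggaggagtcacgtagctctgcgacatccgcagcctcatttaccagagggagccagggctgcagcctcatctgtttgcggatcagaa
GAPDH: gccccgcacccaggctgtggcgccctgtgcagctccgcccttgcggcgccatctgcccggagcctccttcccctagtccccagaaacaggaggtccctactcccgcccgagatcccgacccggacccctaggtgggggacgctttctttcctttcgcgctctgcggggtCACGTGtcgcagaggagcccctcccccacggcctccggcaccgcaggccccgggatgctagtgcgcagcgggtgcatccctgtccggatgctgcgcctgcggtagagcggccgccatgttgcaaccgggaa
LDHA: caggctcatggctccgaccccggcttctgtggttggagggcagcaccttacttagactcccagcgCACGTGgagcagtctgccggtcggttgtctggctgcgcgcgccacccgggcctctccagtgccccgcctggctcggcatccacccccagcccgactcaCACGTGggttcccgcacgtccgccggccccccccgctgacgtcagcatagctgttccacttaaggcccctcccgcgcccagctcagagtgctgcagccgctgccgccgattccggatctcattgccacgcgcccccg

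LDHA holds 2 E-boxes in this window and the others 1 each, and the 3 genes did not move alike: ALDOC rose from 12 to 96 h, whereas GAPDH and LDHA fell. The shorter core ACGTG, which hypoxia-inducible factors bind and which lies within every E-box, was found in 13 of the 37 promoters, against 21.6% of all promoters, and in 4 of the 9 that rose and 3 of the 7 that fell. Its variant GCGTG was found in 20 of the 37, against 36.3% of all, and the antioxidant core TGACNNNGC in 7, against 13.6%.

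Pyruvate dehydrogenase is switched off by the PDK kinases and switched on by the PDP phosphatases. PDP1 was lower than DMSO at all 6 times. It read 10.87 and 10.24 in DMSO, and in PLX4720 9.03 and 8.58 (12 h), 8.72 and 8.03 (24 h), 9.05 and 8.21 (48 h), 8.48 and 7.90 (60 h), 8.85 and 8.77 (72 h) and 8.34 and 7.80 (96 h). No PLX4720 array came within 1 log2 unit of the lower DMSO array. PDP1 was 3.37-fold lower at 12 h (-1.75 on the log2 scale, SE 0.34, limma adjusted p = 0.00333) and 5.6-fold lower at 96 h (-2.49, SE 0.34, limma adjusted p = 0.000131). The call at 12 h was lost only with array weights (limma adjusted p = 0.0523).

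PDK3, a kinase of this family found in few tissues, read 12.31 and 10.33 in DMSO, and in PLX4720 10.34 and 10.80 (12 h), 10.93 and 11.14 (24 h), 12.67 and 12.37 (48 h), 12.13 and 12.30 (60 h), 12.88 and 13.09 (72 h) and 12.41 and 12.71 (96 h). The DMSO arrays differed by 1.98, so 1 of them resembled the early and 1 the late PLX4720 arrays. The rise from 12 to 96 h was 3.97-fold (1.99 on the log2 scale, SE 0.44, limma adjusted p = 0.0041) and held under all 25 alternatives. Its fold change uses neither DMSO array, but its SE and adjusted p rest on a spread that includes both. Against DMSO at 96 h PDK3 was 1.24 higher (SE 0.44, limma adjusted p = 0.0488), a call lost under 18 alternatives, with changes from 0.25 to 2.23. The second PDK3 probe, which was dimmer, gave 0.15 against DMSO at 96 h and 0.36 between 12 and 96 h and was not called in either. It was called lower than DMSO at 48 h (-0.62, limma adjusted p = 0.0426) and stood at -0.47 at 60 h and -0.51 at 72 h, where the probe used stood at 1.20, 0.90 and 1.67, so the probes disagree in sign from 48 to 72 h.

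PDK2, a kinase of most tissues, was 1.78-fold higher than DMSO at 96 h (0.83, SE 0.22, limma adjusted p = 0.0112), and its arrays at 96 h, 8.89 and 8.77, were above those of DMSO, 7.72 and 8.27. It rose by 0.67 from 12 to 96 h (SE 0.22, limma adjusted p = 0.0323), and both calls were lost with median scaling. PDK2 was also called higher than DMSO at 24 h (0.74, limma adjusted p = 0.0275) and at 48 h (0.70, limma adjusted p = 0.0302). PDK1, a kinase known to rise in hypoxia, was above background on the 2 arrays at 48 h only, so no fold change is given for it at 12 or 96 h.

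Pyruvate enters the mitochondrion through a carrier of MPC1 and MPC2 subunits. MPC2 read 11.71 and 11.50 in DMSO, and in PLX4720 12.07 and 12.03 (12 h) and 12.39 and 12.50 (96 h), and no PLX4720 array at any time was as low as DMSO. It was higher than DMSO from 24 h on, by 0.67 at 24 h (limma adjusted p = 0.0116) and 0.84 at 96 h (SE 0.16, limma adjusted p = 0.00192). MPC1 read 13.49 and 13.46 in DMSO, and in PLX4720 13.45 and 13.13 (12 h) and 14.19 and 13.98 (96 h). It was called higher from 60 h on, with 0.61 at 96 h (SE 0.17, limma adjusted p = 0.0179), and rose 1.73-fold from 12 to 96 h (limma adjusted p = 0.00372), a call lost without replicate 2 at 12 h. Both MPC1 probes were higher at 96 h, by 0.61 and 1.23. Median scaling left changes of 0.43 for MPC2 and 0.16 for MPC1 at 96 h, both not called.

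Of the pyruvate dehydrogenase complex itself, DLAT, the acetyltransferase subunit, was higher than DMSO at 48 h (0.76, SE 0.25, limma adjusted p = 0.0437) and at 72 h (0.84, SE 0.25, limma adjusted p = 0.0243), but not at 96 h (0.53, limma adjusted p = 0.135). The DMSO arrays of DLAT lay apart, at 11.33 and 10.47, against 11.86 and 11.46 at 48 h and 11.72 and 11.77 at 72 h. PDHA1 and PDHB, the subunits of the complex's first enzyme, passed no test. PDHA1 had changes of 0.42 at 12 h (limma adjusted p = 0.154) and 0.49 at 96 h (SE 0.19, limma adjusted p = 0.066).

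Of the 6 pentose phosphate members, PGD and TKT fell from 12 to 96 h and the other 4 were not called between these times. Of all genes, 14% were called lower and 15.1% higher in this comparison. PGD, phosphogluconate dehydrogenase of the oxidative branch that yields NADPH, read 11.88 and 12.61 in DMSO, and in PLX4720 12.99 and 12.57 (12 h), 12.48 and 12.18 (24 h), 11.17 and 11.07 (48 h), 11.19 and 11.01 (60 h), 10.95 and 10.72 (72 h) and 11.38 and 11.01 (96 h). The 12 and 24 h arrays overlapped DMSO, and all 8 later arrays lay below the other 6. PGD was 2.06-fold lower than DMSO at 96 h (-1.05 on the log2 scale, SE 0.25, limma adjusted p = 0.00695), a call lost without replicate 2 of the 96 h arrays (limma adjusted p = 0.0677). From 12 to 96 h it fell by 1.58 (SE 0.25, limma adjusted p = 0.000371) under every alternative. PGLS, the lactonase before PGD, passed no test.

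TKT and TALDO1, the transketolase and transaldolase of the other branch, stood highest in the first day. TALDO1 read 13.90 and 14.21 in DMSO, and in PLX4720 14.90 and 14.65 (12 h), 14.82 and 14.87 (24 h) and 14.51 and 14.61 (96 h), with no overlap with DMSO. It was 0.72 higher at 12 h (SE 0.18, limma adjusted p = 0.0138) and 0.50 higher at 96 h (limma adjusted p = 0.047), and these calls were lost under 4 and 18 alternatives, median scaling among them, the former also without replicate 1 at 12 h. TKT read 14.20 and 14.67 in DMSO, and in PLX4720 15.01 and 14.89 (12 h), 14.97 and 14.96 (24 h) and 14.29 and 14.30 (96 h). TKT was 0.52 higher at 12 h without passing the test (SE 0.18, limma adjusted p = 0.0609). It was called at 24 h (0.54, limma adjusted p = 0.0477), a call lost with each probe as its own feature (limma adjusted p = 0.0543). From 12 to 96 h it fell by 0.66 (SE 0.18, limma adjusted p = 0.0132), a call lost without replicate 1 at 12 h or either array at 96 h. At 96 h TKT stood at -0.14 against DMSO (limma adjusted p = 0.599), and median scaling called it lower (-0.65).

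RPIA, the isomerase that makes ribose phosphate, was 1.74-fold lower than DMSO at 12 h (-0.80, SE 0.19, limma adjusted p = 0.0114) and lower at 24 h, with 12 h arrays at 9.84 and 10.12 against 10.87 and 10.69. The call at 12 h was lost under 3 alternatives, one of them without replicate 1 at 12 h, and the gene was not called later. RPE, an epimerase of the same branch, read 11.59 and 10.39 on the DMSO arrays and passed no test.

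**Figure D4:**
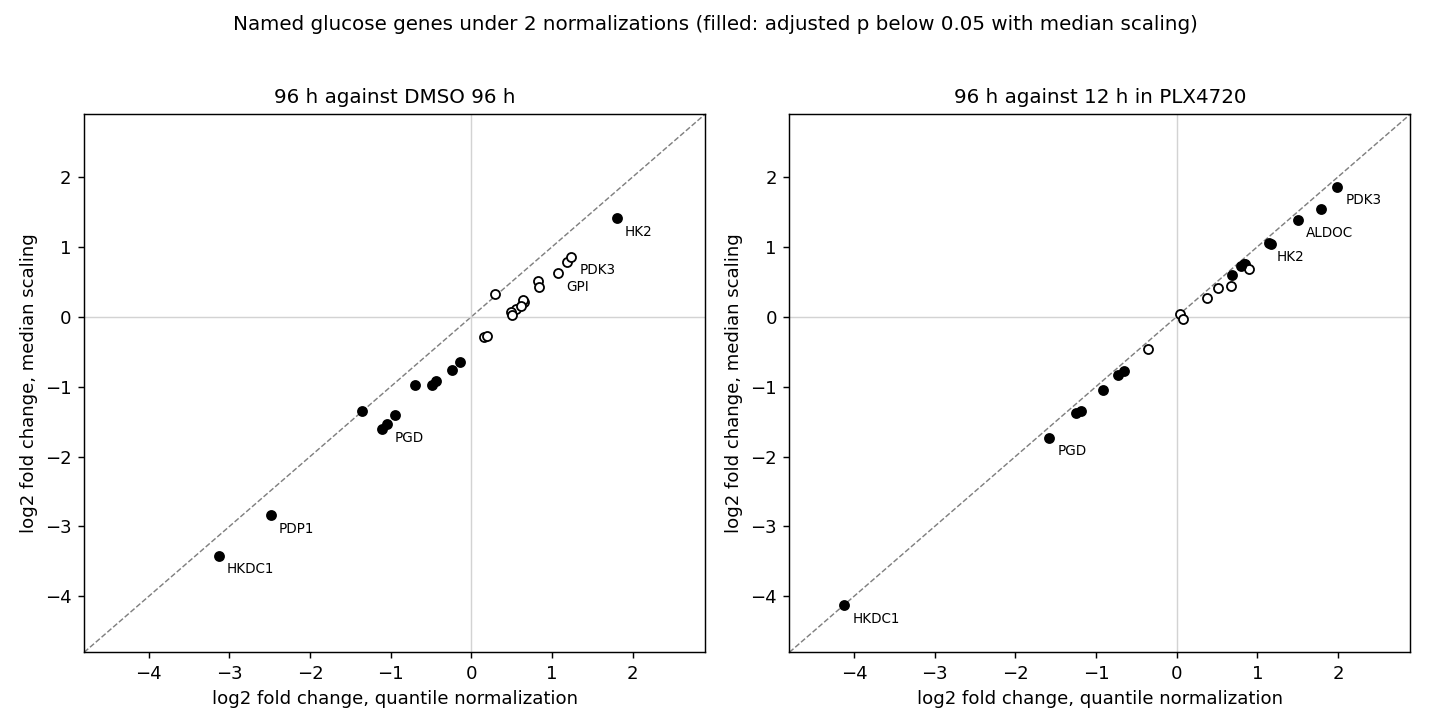
Log2 fold changes of the named members under quantile normalization (horizontal) and median scaling (vertical), for 96 h against DMSO (left) and 96 h against 12 h of PLX4720 (right). Filled points have an adjusted p below 0.05 with median scaling and the dashed line marks equal values. On the left nearly all points lie below the line and HK2 is the only filled point above 0, and on the right filled points stand on both sides of 0.

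Genes of the same pathways outside the list were counted for comparison, 45 of 60 of which could be tested. At 12 h 5 of them were higher and 4 lower than DMSO, which is 11.1% and 8.89% of the 45 against 8.99% and 8.26% of all genes. At 96 h 9 were higher and 10 lower (20% and 22.2%, against 16.4% and 13.5%). Between 12 and 96 h 10 rose and 10 fell (22.2% each, against 15.1% and 14%), and the F test over PLX4720 times called 18, or 40%, against 28.1%. MYC, a transcription factor known to drive genes of glycolysis, read 11.35 and 11.69 in DMSO, and in PLX4720 8.11 and 8.25 (12 h) and 10.21 and 10.31 (96 h). It was 10.1-fold lower at 12 h (-3.34 on the log2 scale, SE 0.17, limma adjusted p = 1.16e-07), 2.4-fold lower at 96 h (limma adjusted p = 0.00014), and higher at 96 h than at 12 h by 2.08 (limma adjusted p = 1.85e-06).

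Of the hypoxia-inducible factors, HIF1A was 2.06-fold lower than DMSO at 96 h (-1.04, SE 0.34, limma adjusted p = 0.0364) and not called at 12 h (-0.36, limma adjusted p = 0.522). EPAS1 was 5.94-fold higher at 96 h (2.57, SE 0.20, limma adjusted p = 1.31e-06), with arrays at 12.42 and 12.91 against 9.89 and 10.30 in DMSO, and not called at 12 h (-0.17, limma adjusted p = 0.625). TXNIP, an inhibitor of glucose uptake, was not called against DMSO at 12 or 96 h and rose by 0.55 between them (limma adjusted p = 0.0307). The muscle mutase PGAM2 was 4.74-fold lower at 96 h (-2.24, SE 0.25, limma adjusted p = 2.51e-05). Any part of these factors in the changes of the members was not tested.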

How the data were processed

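The deposited unnormalized table holds an intensity on a linear scale for each of 47322 probes on each array, per the file headers, and the authors used Illumina arrays, per the labels. Its 28 further columns were empty, so limma's neqc, which needs detection p-values or control probes, was replaced by limma's normexp with an offset of 16 before log2 and quantile normalization. The authors' deposited normalized table holds log2 values and served as an alternative. For the scanner and its software, nothing is given in the sources used here.

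A probe was above background where it passed the 1% upper tail of a normal distribution around the mode of its array. Of all probes, 30113 had 1 gene in the platform annotation, 8 had several and 17201 had none, and 30074 were matched to RefSeq (GRCh38.p14). The brightest probe above background on at least 2 arrays stood for each gene. Limma 3.58.1 in R 4.3.3 fitted 12743 genes over 7 groups (7 residual and 5.86 prior degrees of freedom), two-sided, with Benjamini-Hochberg adjustment within each comparison. The limma fit alone was tested on simulated log2 values, with known changes at 96 h against DMSO. Each simulated gene had the same spread in all groups, unlike the data, and the steps before the fit were not simulated.

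Members and lists were chosen with earlier results of these data known. Values are given for members called in a comparison (up to 8 rises and 8 falls) and for a set of named members, and per array for those with the largest changes. DLAT, SLC16A3 and the other members not in that set were added so that each is accounted for. Alternatives changed background, scaling, source table, probe filter, probe choice, arrays fitted, weights and block, and left out each array in turn.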

Additional observations from a re-analysis of the deposited data

Results flagged for a closer look

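In 2 members the PLX4720 arrays differed from the same DMSO arrays in opposite directions at 12 h and 96 h. Both changes and the difference between the times had to be called for a member to be flagged, so these calls are no separate support. HKDC1 was higher at 12 h (log2 fold change 0.99) and lower at 96 h (-3.13), a difference of -4.12 (limma adjusted p = 7.95e-08) that held under all 25 alternatives, although the probe was above background on only 1 of the 2 arrays at 96 h. PFKFB2 was lower at 12 h (-0.60) and higher at 96 h (1.19), a difference of 1.79 (limma adjusted p = 1.59e-05). The difference held under all 25 alternatives, while the call at 12 h did so under only 4 of them. With median scaling the rise of HKDC1 at 12 h (0.71) and that of PFKFB2 at 96 h (0.79) were not called. Groups of 2 arrays were not tested for outlying arrays.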

How the results depend on the processing

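Changes of single members were followed over all 25 alternatives only for 12 h and 96 h against DMSO and for 96 h against 12 h. Of the 50 changes called in these comparisons, all 50 kept their direction under all 25 alternatives. Of these, 25 kept their call under all of them. Calls given above at the times in between were not followed in this way. With 2 arrays a group, the number of arrays limits every value. Counts of called members were lower in fits of only the groups compared, with 8 at 12 h, 5 at 24 h, 9 at 60 h, 10 at 72 h and 11 at 96 h against DMSO, in place of 13, 11, 14, 16 and 19. With array weights, which gave the DMSO arrays a weight of 0.312 and the others 1.08 to 1.42, they were 7 at 12 h, 4 at 24 h and 9 at 96 h, and without the filter on dim probes 7 at 24 h. Between 96 h and 12 h, array weights gave 20 members in place of 18. The cause of the lower counts against DMSO was not tested, beyond the fewer arrays in the fits of only the groups compared. For these fits, and for those below with an array left out or a block, the shares of all genes called are not given. Such counts are therefore not read as results about the members.

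Leaving out 1 array gave 4 to 14 members at 24 h and 10 to 22 at 96 h. The count was 6 without replicate 1 and 4 without replicate 2 of the 24 h arrays, and 10 without replicate 1 of the 96 h arrays. The other ranges were 9 to 18 at 12 h, 10 to 16 at 48 h and at 60 h, 12 to 18 at 72 h, 14 to 23 between 96 h and 12 h and 14 to 22 for the F test. Values that turned sign were all of members not called there. With median scaling PFKP became -0.059 and LDHB -0.089 at 12 h, SLC2A1 -0.29 and PKM -0.28 at 96 h, and PDHA1 -0.039 between 96 h and 12 h. Over left-out arrays, GAPDH ranged from -0.38 to 0.041 and LDHB from -0.0053 to 0.58 at 12 h. At 96 h SLC2A1 ranged from -0.17 to 0.48 and TKT from -0.37 to 0.10, and PDHA1 ranged from -0.087 to 0.24 between 96 h and 12 h.

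Replicates with the same number correlated at -0.20 to 0.42 between DMSO and PLX4720 groups in their deviations from the group means, and at 0.15 to 0.41 among the PLX4720 groups (0.39 for 12 h with 96 h). The labels do not say what a number shares and each group has only 2, so the numbers were not taken to pair the samples, though the PLX4720 arrays of 1 number deviated together. A fit with the replicate number as a block called 15, 12, 17, 16, 16 and 20 members against DMSO from 12 to 96 h, 22 in place of 18 between 96 h and 12 h and 23 in place of 17 in the F test.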
